A study of Mus musculus with 126 samples.

Results

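The comparison described here is Trichostatin A (TSA) against its solvent DMSO in mouse embryonic stem cells that lack DNA methylation. It uses 4 of the 126 samples of the series, namely 2 TSA and 2 DMSO RNA-seq libraries of the Dnmt triple knockout (TKO), and these were chosen by their column names in the deposited count table. All 4 libraries come from J1 cells of the genotype Dnmt1-/-, Dnmt3a-/-, Dnmt3b-/-, so the knockout is shared by both groups. The cells grew on gelatin in serum with leukaemia inhibitory factor (LIF). One group was exposed to TSA at a labelled 5 ng/µl for 36 h, and the control group received DMSO at 0.0033% for the same time. RNA was total RNA depleted of ribosomal RNA. The series describes the libraries of a group as biological replicates and does not say how the cultures were separated or whether the TKO cells are a single clone. The 2 TSA and 2 DMSO libraries of wild type J1 cells enter where the responses of the genotypes are compared. The comparison asks which genes respond to blocked deacetylation when DNA methylation is already absent.

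Histone deacetylases remove acetyl groups from histone tails, and TSA blocks the zinc-dependent members of that family, so acetylation builds up over the genome. DNA methylation of CpG sites is the other mark tied to silent promoters, repeats, imprinted genes and germline genes, and embryonic stem cells tolerate its complete loss while they remain undifferentiated. Their undifferentiated state rests on a network of factors around Oct4 (encoded by Pou5f1), Sox2 and Nanog, held by LIF signalling and opposed by differentiation signals. Levels are given as CPM, read counts scaled to a common library size, with replicate 1 before replicate 2, and every fold change is TSA against DMSO.

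The 4 TKO libraries held between 14241830 and 15542527 counts over 23420 genes. Counting error is therefore small for genes above a few CPM, and intervals from counting would not cover the spread between cultures. The library pairs differed by more than sampling noise, with a chi-square per degree of freedom of 5.28 for DMSO and 8.47 for TSA, so each library was counted as a replicate. The deleted genes were read first. Dnmt3b ran from 43.7 to 76.1 CPM in the TKO libraries and from 343 to 596 CPM in wild type, Dnmt3a from 25.9 to 39.1 against 152 to 237 CPM, and Dnmt1 from 123 to 135 against 360.1 to 464 CPM. All TKO libraries lay below all wild type libraries for these genes, and the table does not resolve which exons the remaining reads come from. The stem cell label was checked with 8 defining genes, whose summed level was 4341 and 4763 CPM in DMSO and 2211 and 1879 CPM in TSA. Genes that define feeder fibroblasts summed to 11.4 and 11.1 CPM in DMSO and to 36.9 and 54.9 CPM in TSA. Decorin (Dcn), a defining fibroblast gene, went against this sum and had no count in either TSA library.

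Most of the measured transcriptome differed between TSA and DMSO. Of 15822 genes tested, 9298 (58.8%) passed the edgeR quasi-likelihood test at a Benjamini-Hochberg adjusted p below 0.05, which is the meaning of called, rose and fell throughout. Called genes comprised 4879 that rose (30.8% of those tested) and 4419 that fell (27.9%). Large changes were mostly increases, with 2873 genes at least 2-fold higher (18.2% of those tested) and 1227 at least 2-fold lower (7.76%). List counts are to be read against these shares. Both TSA libraries lay above or below both DMSO libraries for 82.0% of tested genes and for 9296 of the 9298 called genes, so groups without overlap are the usual case in these data. At 10-fold or more there were 446 increases and 52 decreases. The near balance of directions rests on the scaling of the libraries. Scaled by library totals alone, 5911 genes rose and 3261 fell, and the median log2 fold change of all genes went from 0.04 to 0.19. All directions given here refer to TMM-scaled libraries.

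Weakly expressed genes more often rose and abundant genes more often fell. Genes were ranked by mean level into 4 equal bins. In the lowest bin 1594 rose and 478 fell, with a median log2 fold change of 0.71. In the highest bin the order turned, with 713 higher (18.0%), 1719 lower (43.5%) and a median of -0.18. Lists of abundant genes are to be read against these shares too. Genes with at least 1 CPM numbered 13725 and 13845 in the DMSO libraries and 14480 and 14711 in the TSA libraries. Among 7174 genes with at most 3 counts in each DMSO library, 170 reached at least 1 CPM in both TSA libraries. The reverse held for 12 genes. X-linked genes had a median log2 fold change of 0.34, and 271 of 632 rose. In bulk RNA a change in the cells' makeup and a change in RNA per cell cannot be told apart, and all levels are shares of the measured RNA.

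**Figure D1:**
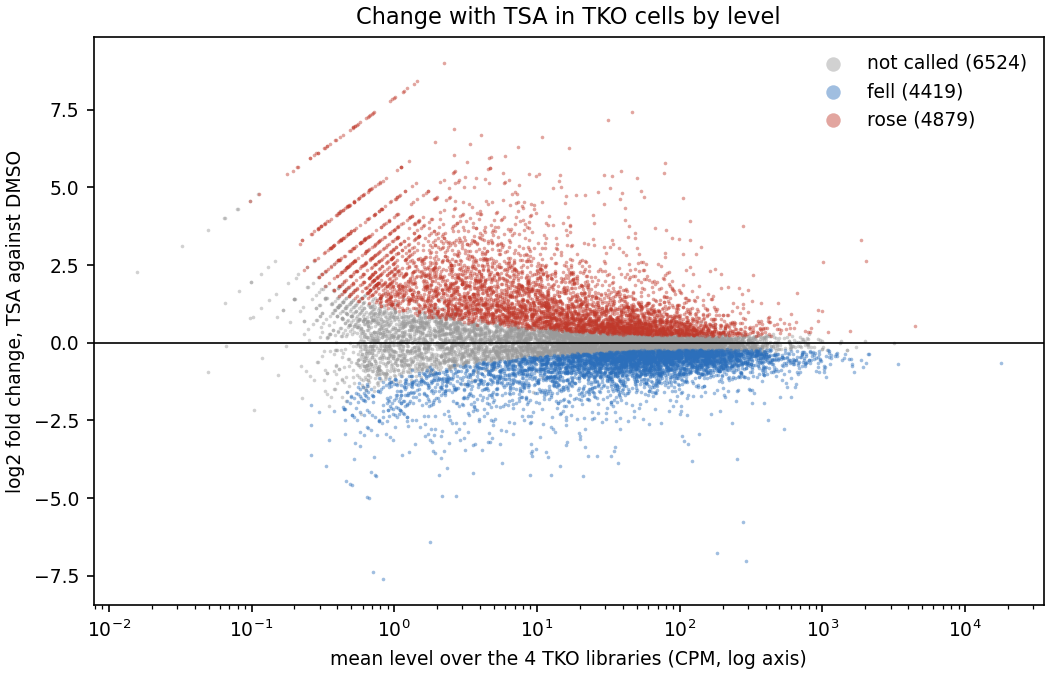
Mean level of each tested gene over the 4 TKO libraries (CPM, log axis) against its log2 fold change of TSA against DMSO from edgeR. Red points are the 4879 genes that rose, blue points the 4419 that fell, grey points were not called, and the line marks no change; increases crowd the low levels on the left, where the diagonal rows are genes with few or no counts in DMSO, and decreases the high levels on the right.

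**Figure D2:**
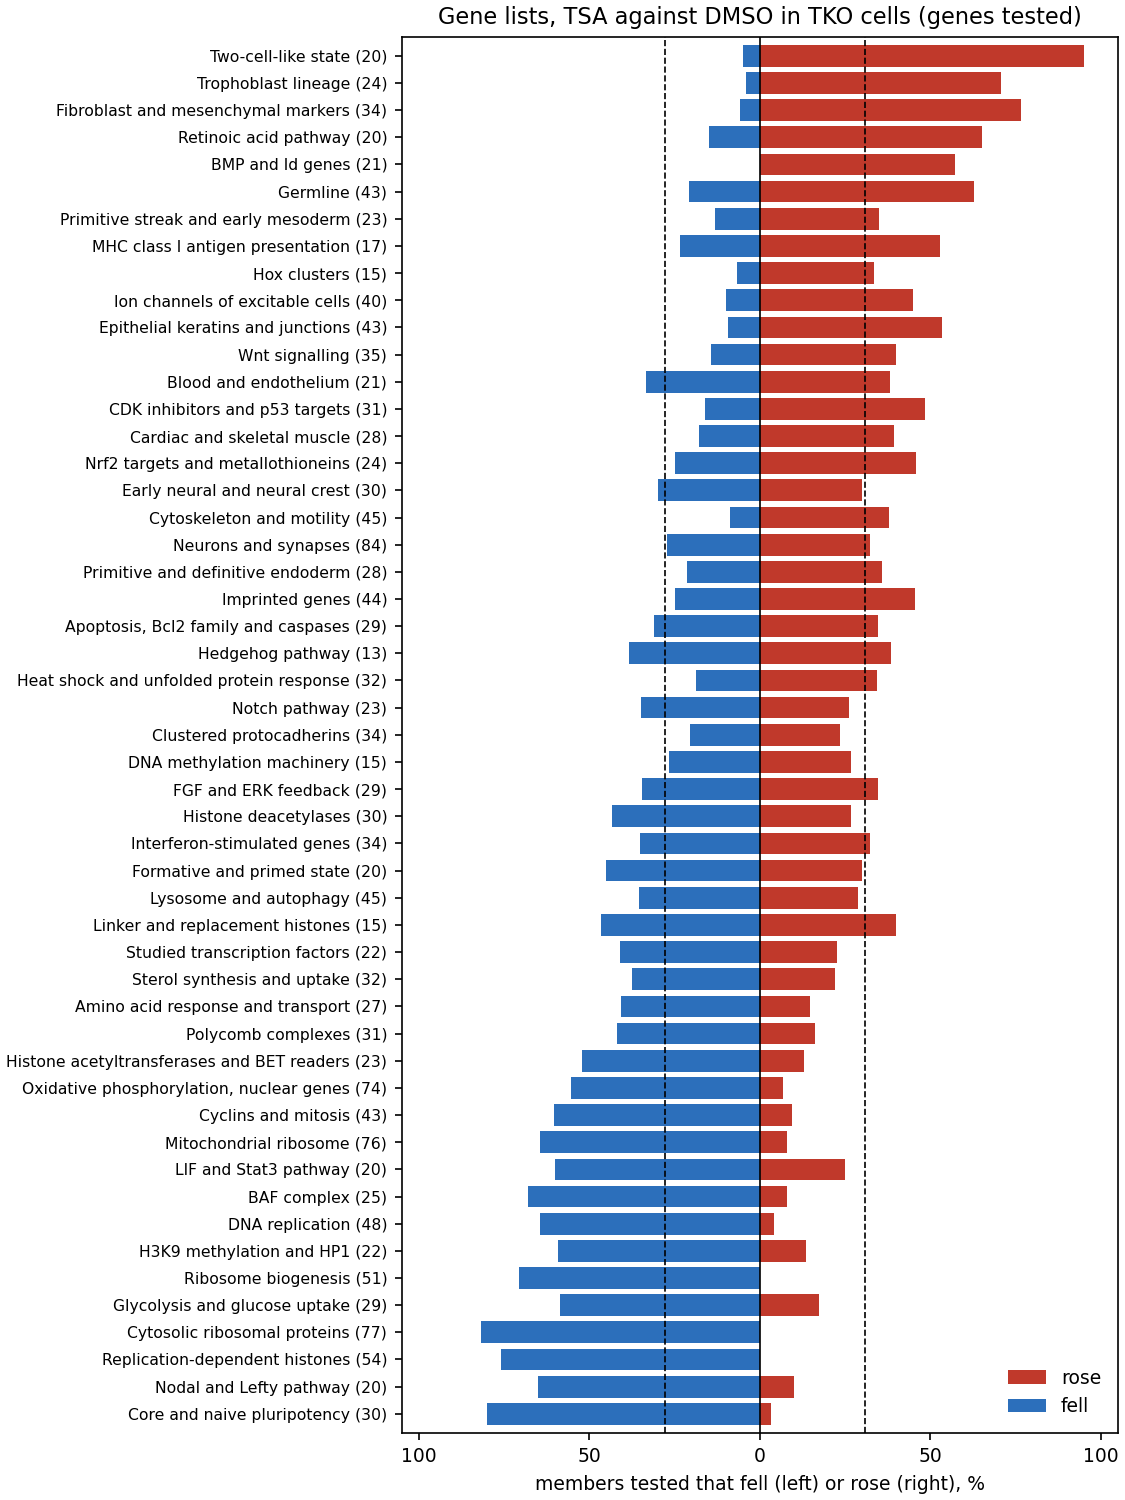
For each of 51 gene lists, the percentage of tested members that rose (right, red) and fell (left, blue) with TSA in TKO cells, ordered by median log2 fold change. Dashed lines mark the shares over all tested genes, 30.8% higher and 27.9% lower; two-cell-like genes lie at the top and core pluripotency genes at the bottom.

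Among genes averaging 5 CPM or more, the strongest increases were of genes close to silent in DMSO. Oas1e, one of the similar copies of the oligoadenylate synthetase family, whose split of reads is uncertain (chr5:120786312-120795530), was at 0.547 and 0.291 CPM in DMSO and 44.6 and 80.6 CPM in TSA. Sost (chr11:101962458-101967015), which encodes the Wnt antagonist sclerostin, had 3 and 3 counts in the DMSO libraries and 10.7 and 32.3 CPM in TSA. The ratio of its summed scaled counts was 103, with an exact 95% interval of 47.3 to 283 that covers counting error only. Bex6 (chr16:32179800-32186944) had 2 and 3 counts in DMSO and 10.5 and 18.6 CPM in TSA, a ratio of 83.3 (35.4 to 258, same interval). These genes were selected with both TSA libraries above both DMSO libraries, and in each the second TSA library was the higher one. Ido1, the enzyme that starts tryptophan breakdown (chr8:24584141-24597009), went from 0.274 and 0.0728 to 10.8 and 12.9 CPM (log2 fold change 6.0 ± 0.52 SE, edgeR adjusted p 4.29e-06). Tex13, an X-linked gene expressed in testis (chrX:140808307-140813433), went from 1.3 and 1.38 to 50.0 and 64.4 CPM.

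Tex19.2 rose most of the genes averaging 100 CPM or more. Its levels were 7.6 and 8.66 CPM in DMSO and 145 and 261 CPM in TSA (log2 fold change 4.64 ± 0.38 SE, edgeR adjusted p 4.36e-05). Tex19.2 (chr11:121116215-121118677) is a germline gene related to Tex19.1. Kctd12, an auxiliary subunit of GABA-B receptors, went from 15.5 and 13.9 to 166 and 276 CPM, and the sulfate transporter gene Slc26a2 from 36.5 and 39.7 to 377 and 657 CPM. The small GTPase gene Arl4d, the imprinted RNA H19 and the calcium-binding protein gene S100a6 complete this group. H19 stood at 267 and 425 CPM in DMSO and 2689 and 4095 CPM in TSA.

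In the same level range decreases were steepest at the Lefty genes, described with their pathway, and at Trh. Trh (chr6:92242062-92244648), which encodes thyrotropin-releasing hormone, was at 473 and 614 CPM in DMSO and 11.2 and 8.54 CPM in TSA, a log2 fold change of -5.78 ± 0.24 (SE, edgeR adjusted p 8.09e-07). Upp1, a uridine phosphorylase gene (chr11:9118008-9136170), dropped from 454 and 489 to 30.8 and 39.4 CPM, and Jam2, a junctional adhesion molecule gene (chr16:84774123-84826375), from 215 and 237 to 17.2 and 14.8 CPM. Enox1 fell from 201 and 211 to 25.7 and 17.1 CPM. Groups without overlap were a condition for naming these genes. At means from 5 to 100 CPM large decreases included those of the epithelial membrane protein gene Emp1 (37.4 and 42.5 CPM in DMSO, 1.89 and 2.2 in TSA), the transporter genes Slc5a11 and Slc15a1, Igfals, Lrrc2 and Mcf2, with log2 fold changes from -4.28 to -3.65.

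The promoters of 3 responsive genes differ in the number of CpG sites, the sites that the deleted enzymes methylate. The 250 bases before the start of Trh, Tet2 and Tex19.2 are shown to set a CpG-rich promoter beside a CpG-poor one, as RefSeq gives them on the gene's strand for GRCm38.p6 (mm10), with each CpG in capitals. Trh lies at chr6:92244651-92244900 (minus strand) with 25 CpG sites, Tet2 at chr3:133544391-133544640 (minus strand) with 51, and Tex19.2 at chr11:121118678-121118927 (minus strand) with 2.
Trh: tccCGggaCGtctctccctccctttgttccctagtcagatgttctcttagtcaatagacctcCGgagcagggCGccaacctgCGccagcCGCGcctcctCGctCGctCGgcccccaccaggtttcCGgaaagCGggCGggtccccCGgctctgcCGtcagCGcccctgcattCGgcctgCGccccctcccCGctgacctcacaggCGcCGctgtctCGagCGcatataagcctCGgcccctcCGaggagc
Tet2: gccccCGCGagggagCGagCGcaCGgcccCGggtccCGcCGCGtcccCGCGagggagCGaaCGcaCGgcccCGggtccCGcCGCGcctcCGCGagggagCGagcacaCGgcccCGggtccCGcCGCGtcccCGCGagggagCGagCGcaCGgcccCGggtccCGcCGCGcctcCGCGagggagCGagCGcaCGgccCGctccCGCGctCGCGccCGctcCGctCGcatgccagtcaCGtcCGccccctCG
Tex19.2: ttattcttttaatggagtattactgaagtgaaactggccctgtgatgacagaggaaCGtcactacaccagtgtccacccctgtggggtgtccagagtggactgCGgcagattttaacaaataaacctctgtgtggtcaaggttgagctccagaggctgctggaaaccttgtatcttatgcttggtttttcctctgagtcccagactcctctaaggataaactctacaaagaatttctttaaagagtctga
Trh and Tet2 fell while Tex19.2 rose, but these 3 were picked for contrast, and a link between CpG number and direction was not tested. A comparison of promoter composition over all called genes was void, because a RefSeq promoter was matched to 75.5% of the tested genes, under the 80% required.

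The pluripotency network was lowered nearly throughout. Of 30 core and naive pluripotency genes tested 24 fell and 1 rose, with a median log2 fold change of -1.11 against 0.04 over all tested genes. Pou5f1 was at 933 and 949 CPM in DMSO and 397 and 303 CPM in TSA (log2 fold change -1.43 ± 0.14 SE, edgeR adjusted p 9.48e-06). Sox2 was at 476 and 485 CPM in DMSO and 404 and 316 CPM in TSA (log2 fold change -0.42, edgeR adjusted p 0.0128). The Sox2 call was lost with library totals as the scaling (0.0667) and without DMSO replicate 1 (0.0522), DMSO replicate 2 (0.0637) or TSA replicate 2 (0.135), all edgeR adjusted p-values. Nanog overlapped between the groups, at 375 and 465 CPM against 322 and 376 CPM, and was not called (edgeR adjusted p 0.0674). Among naive factor genes Esrrb, Klf2 and Zfp42 fell. Esrrb stood at 458 and 538 CPM in DMSO and 179.5 and 144 CPM in TSA, Klf2 at 67.1 and 93.4 against 27.1 and 26.7 CPM, and Zfp42, known as Rex1, at 862 and 1014 against 438 and 315 CPM. Klf4 also fell, with a log2 fold change of -1.01.

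The steepest decreases in that list were those of Gdf3, a TGF-beta family ligand, and Prdm14, a repressor of differentiation genes. Gdf3 was at 209 and 162 CPM in DMSO and 25.9 and 20.6 CPM in TSA, and Prdm14 at 30.0 and 39.4 against 5.21 and 4.08 CPM. Tbx3, an activator of the naive network, dropped from 40.8 and 48.6 to 7.31 and 11.1 CPM, and Tdh, the threonine dehydrogenase gene of mouse stem cells, from 374 and 418 to 75.8 and 57.4 CPM. The single increase was of Dppa3 (Stella), a gene of early embryos and germ cells, from 28.3 and 32.4 to 90.7 and 159 CPM.

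Genes of the formative and primed state, which follow naive pluripotency in the embryo, went both ways. Of 20 tested, 6 rose and 9 fell. Those that rose include Dnmt3b, a gene deleted in TKO cells. Otx2, a factor of the primed epiblast, fell from 54.5 and 46.5 to 27.1 and 20.0 CPM, and Foxd3 from 38.9 and 40.4 to 5.35 and 2.39 CPM. Zic2 was at 41.9 and 43.1 CPM in DMSO and 8.39 and 7.47 CPM in TSA. Fgf5, the usual marker of primed cells, stayed low at 2.53 and 1.02 CPM in DMSO and 1.69 and 2.95 CPM in TSA and was not called. Wnt8a and Sox3 rose, by log2 fold changes of 1.77 and 1.65.

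**Figure D3:**
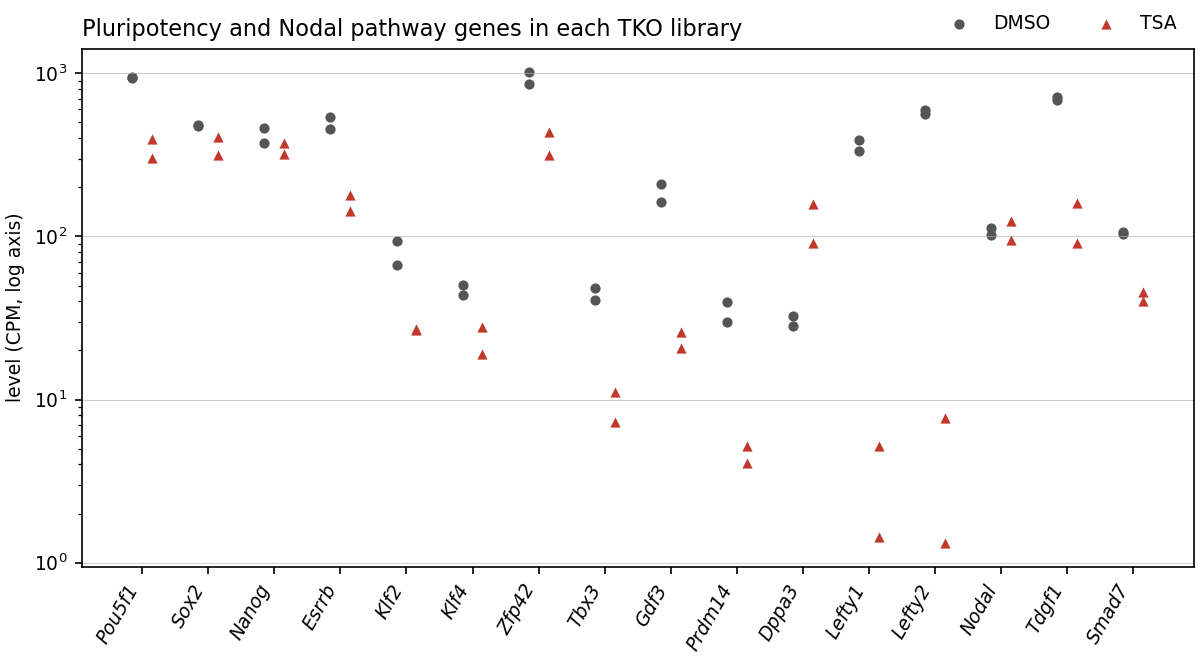
Level of 16 genes of pluripotency and Nodal signalling in each TKO library (CPM, log axis); grey circles are the 2 DMSO libraries and red triangles the 2 TSA libraries. Lefty1 and Lefty2 fall from over 300 CPM to below 10, while Nanog and Nodal overlap between the groups.

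Nodal and its antagonists parted in TKO cells. Nodal is a TGF-beta family ligand that signals through activin receptors, the co-receptor Cripto (Tdgf1) and Smad2 and Smad3, and induces its own inhibitors, the Lefty proteins. Lefty1 (chr1:180935039-180938401) was at 389.9 and 334 CPM in DMSO and 5.21 and 1.44 CPM in TSA, and Lefty2 (chr1:180893119-180899102) at 594 and 563 against 7.71 and 1.32 CPM. Their log2 fold changes were -6.78 ± 0.57 and -7.02 ± 0.84 (SE), with edgeR adjusted p-values of 6.75e-05 and 0.00142. Both are similar neighbours, so the split of reads between them is uncertain. The first TSA library kept more of both transcripts than the second, and both TSA libraries lay far below DMSO. Nodal itself overlapped between the groups, at 102 and 113 CPM in DMSO and 95 and 124 CPM in TSA.

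Further members of the pathway fell with the Lefty genes. Of 20 tested, 13 fell and 2 rose, with a median log2 fold change of -0.79. Tdgf1 dropped from 719 and 685 to 161 and 90.7 CPM, and the inhibitory Smad gene Smad7 from 107 and 104 to 45.5 and 40.3 CPM. Inhbb, an activin subunit gene, went from 12.8 and 20.7 to 1.42 and 1.44 CPM. The signal transducer gene Smad3 rose by a log2 fold change of 0.58.

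Genes of the BMP branch moved the other way. BMP ligands act through Smad1 and Smad5 and induce the Id genes, which encode inhibitors of basic helix-loop-helix factors. None of 21 members tested fell and 12 rose, with a median log2 fold change of 1.04. Id1 was at 63.5 and 56.3 CPM in DMSO and 256 and 170.1 CPM in TSA, Id2 at 33.3 and 22.6 against 91.5 and 67.9 CPM, and Id3 at 28.4 and 24.1 against 99.9 and 105 CPM. All 3 had TSA libraries above both DMSO libraries, as is usual for called genes. The ligand gene Bmp4 was not called (log2 fold change -0.03), and neither were Smad1 and Smad5. The BMP target Msx1 rose from 0.89 and 0.946 to 7.92 and 15.3 CPM, but 58.9% of its exonic sequence is shared with an overlapping gene, so its counts are uncertain.

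In the LIF pathway, which holds these cells undifferentiated through Stat3, more genes fell than rose. Of 20 members 12 fell and 5 rose, with a median of -0.4. The receptor gene Lifr went from 259 and 232 to 134 and 126 CPM and Stat3 from 193 and 181 to 138 and 132 CPM. The feedback inhibitor gene Socs1 rose by a log2 fold change of 1.14, and Il6ra, the interleukin 6 receptor gene, from 1.37 and 1.46 to 9.27 and 12.5 CPM.

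FGF ligand genes split. Fgf4, the autocrine ligand of embryonic stem cells, was at 242 and 312 CPM in DMSO and 56.8 and 55.8 CPM in TSA. Fgf17 (25.9 and 29 against 2.44 and 1.07 CPM) and Fgf15 (17.7 and 16.4 against 1.56 and 1.44 CPM) fell as well. In contrast Fgf1 rose from 6.84 and 5.39 to 59.9 and 104 CPM and the receptor gene Fgfr2 from 23 and 22.6 to 80.3 and 107 CPM. The ERK feedback genes went both ways, with a log2 fold change of -1.04 for Spry4 and 0.92 for Dusp6. Over the whole list 10 of 29 rose and 10 fell.

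Wnt, Notch and Hedgehog genes were mixed. For Wnt signalling 14 of 35 rose and 5 fell. Axin2, the usual readout of the pathway, was at 13.8 and 11.6 CPM in DMSO and 21.7 and 28.2 CPM in TSA. The ligand genes Wnt4 and Wnt9a rose by log2 fold changes of 3.41 and 2.64, and Lef1, a nuclear partner of beta-catenin, fell from 13.9 and 9.46 to 6.36 and 3.2 CPM. Among 23 Notch genes 6 rose and 8 fell. Notch4 dropped from 14.9 and 21 to 1.62 and 1.7 CPM while the feedback gene Nrarp went from 4.99 and 6.04 to 18.2 and 20.7 CPM. The Hedgehog targets Gli1 (29.6 and 32.8 against 11.5 and 9.36 CPM) and Ptch1 (66.2 and 63.8 against 24.4 and 17.7 CPM) fell, as did Gli2 and Hhip, while the co-receptor gene Cdon and the ligand gene Dhh rose by log2 fold changes of 1.32 and 1.73. Over the Hedgehog list 5 of 13 rose and 5 fell.

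Genes of the 2-cell embryo rose as a block. A small share of embryonic stem cells passes through a state that expresses genes of the first cell divisions, among them the Zscan4 family, the transcription factor gene Dux and the Usp17l and Tdpoz copies. Of 20 such genes tested 19 rose, with a median log2 fold change of 4.6 over the list. Zscan4d (chr7:11161643-11166148) was at 3.08 and 3.86 CPM in DMSO and 137 and 166 CPM in TSA, and Zscan4c (chr7:11005745-11010547) at 1.57 and 1.6 against 58.1 and 73.7 CPM. Zscan4f went from 0.205 and 0.728 to 16.9 and 21.7 CPM, Usp17la from 0.411 and 0.946 to 20.0 and 37 CPM and Usp17lc from 0.274 and 0.509 to 14.5 and 19.7 CPM. Dux, which activates this programme in the embryo, was at 0.479 and 0.364 CPM in DMSO and 2.57 and 3.01 CPM in TSA (log2 fold change 2.7 ± 0.48 SE, edgeR adjusted p 4.74e-04). Each of these genes had both TSA libraries above both DMSO libraries, as nearly all genes that rose did. The exception of the list was the translation factor gene Eif1a, which fell from 431 and 437 to 322 and 296 CPM.

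Zscan4 copies are close in sequence, so counts of single members are uncertain. The promoters of Zscan4c and Zscan4f are set side by side. They lie before the counted exons, whose likeness was not measured. The 250 bases before the start of Zscan4c (chr7:11005495-11005744, plus strand) and Zscan4f (chr7:11397665-11397914, plus strand) follow from RefSeq on GRCm38.p6, with CpG sites in capitals.
Zscan4c: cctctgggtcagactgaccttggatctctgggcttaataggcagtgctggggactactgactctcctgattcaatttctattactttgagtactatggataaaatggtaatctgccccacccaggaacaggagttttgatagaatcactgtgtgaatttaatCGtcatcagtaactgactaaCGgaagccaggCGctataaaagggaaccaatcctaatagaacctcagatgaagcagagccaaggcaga
Zscan4f: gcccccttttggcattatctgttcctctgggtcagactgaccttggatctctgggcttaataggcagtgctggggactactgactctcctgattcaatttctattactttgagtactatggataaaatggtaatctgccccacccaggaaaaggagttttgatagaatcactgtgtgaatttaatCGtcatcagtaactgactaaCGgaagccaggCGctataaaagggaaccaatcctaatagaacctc
Aligned with a shift, these promoters overlap by 227 bases, of which 226 are the same. Each holds 3 CpG sites.

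**Figure D4:**
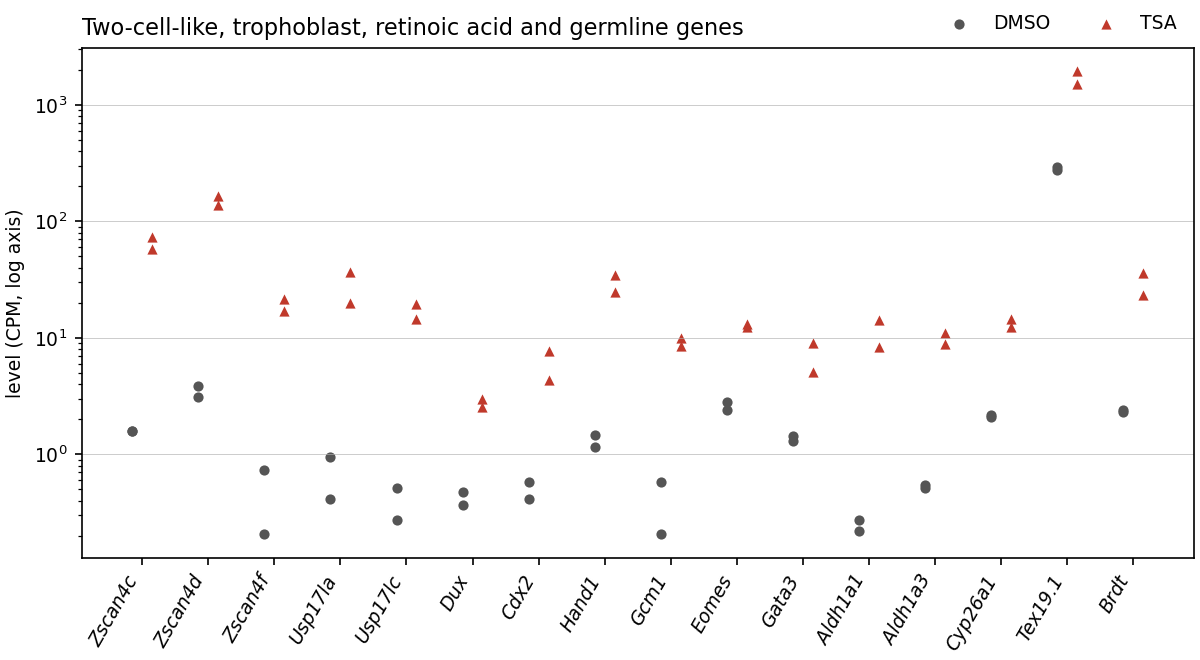
Level of 16 two-cell-like, trophoblast, retinoic acid and germline genes in each TKO library (CPM, log axis); grey circles are the 2 DMSO libraries and red triangles the 2 TSA libraries. The 16 genes were chosen among members that rose, and members that fell are not drawn.

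Germline genes, many of which DNA methylation normally silences, rose more often than they fell. Of 43 tested 27 rose and 9 fell, with a median log2 fold change of 0.9. Tex19.1, which limits transposons in germ cells, was at 276 and 291 CPM in DMSO and 1511 and 1957 CPM in TSA. Brdt, the bromodomain reader of acetylated histones in testis, went from 2.39 and 2.33 to 23.1 and 36 CPM, and the piRNA pathway gene Mael from 30.2 and 27.8 to 73.9 and 58.7 CPM. Ddx4, the germ cell helicase gene, fell from 17.7 and 20.3 to 8.73 and 7.22 CPM and the meiotic gene Hormad1 from 44.7 and 40.7 to 11.9 and 9.98 CPM. Sycp3, a component of the synaptonemal complex, overlapped between the groups at 8.83 and 14.9 against 10.8 and 13.6 CPM.

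Imprinted genes went both ways, with 20 of 44 higher and 11 lower. H19 and its neighbour Igf2 rose together, Igf2 from 9.58 and 9.97 to 27.8 and 43.6 CPM. At the Dlk1-Dio3 domain the noncoding RNAs fell, Meg3 from 182 and 164 to 62.9 and 45.9 CPM and Rian from 823 and 728 to 267 and 199 CPM. Dio3 of the same domain rose from 3.49 and 3.06 to 15.9 and 27.8 CPM. Cdkn1c, an imprinted inhibitor of cyclin-dependent kinases, rose from 37.1 and 35 to 109 and 175 CPM. Igf2 and H19 thus rose in all 4 pairings of a TSA with a DMSO library, which is the usual case for called genes.

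Retinoic acid drives embryonic stem cells out of pluripotency, and genes that make and break it down rose. Of 20 members 13 rose and 3 fell, with a median log2 fold change of 1.41. Synthesis genes rose. Aldh1a1 (chr19:20601982-20643462) was at 0.274 and 0.218 CPM in DMSO and 8.32 and 14.3 CPM in TSA, Aldh1a3 at 0.547 and 0.509 against 8.86 and 10.9 CPM and Aldh1a2 at 5.34 and 5.97 against 29.9 and 41.7 CPM. The degrading enzyme gene Cyp26a1 rose from 2.19 and 2.11 to 12.4 and 14.6 CPM, and the receptor gene Rarb, itself induced by retinoic acid, from 0.753 and 0.364 to 2.03 and 2.95 CPM. The receptor genes Rara and Rarg fell, Rarg from 141 and 145 to 62.4 and 48.8 CPM.

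Trophoblast genes, which mark the placental lineage that embryonic stem cells seldom enter, also rose. Of 24 tested 17 rose and 1 fell, with a median of 1.58. Cdx2, a founding factor of the lineage, was at 0.411 and 0.582 CPM in DMSO and 7.78 and 4.33 CPM in TSA. Hand1, a factor of giant cells and early mesoderm, went from 1.16 and 1.46 to 24.9 and 34.9 CPM, and Gcm1, a factor of the labyrinth, from 0.205 and 0.582 to 8.53 and 9.98 CPM. Eomes stood at 2.39 and 2.84 CPM in DMSO and 12.4 and 13.1 CPM in TSA, and Gata3 at 1.44 and 1.31 against 5.07 and 9.04 CPM. Tfap2c, shared by trophoblast and germ cells, rose from 35.6 and 51.9 to 211 and 196 CPM. Elf5 rose from 1 and 2 counts in DMSO, by a ratio of 19.4 (exact 95% counting interval 6.34 to 96.6). The summed level of 4 defining trophoblast genes was 3.08 and 3.49 CPM in DMSO and 38.9 and 51.1 CPM in TSA.

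For the primitive streak and early mesoderm 8 of 23 rose and 3 fell. Eomes and Cdx2, given above with the trophoblast genes, are also on this list and are among those that rose. Brachyury (T) was at 0.274 and 0.509 CPM in DMSO and 0.541 and 1.00 CPM in TSA and Mixl1 at 0.89 and 0.8 against 0.744 and 0.816 CPM, and neither was called. For endoderm the counts were 10 and 6 of 28. Sox17 rose from 3.9 and 2.91 to 13.5 and 13.8 CPM, whereas Gata6 (3.97 and 6.55 against 3.18 and 4.84 CPM), Gata4 and Foxa2 were not called. Plat, the tissue plasminogen activator gene of parietal endoderm, rose from 5.82 and 6.55 to 48.4 and 73 CPM.

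In the early neural list 9 of 30 genes rose and 9 fell. Among neural plate factors Pax6 fell from 30.3 and 23.3 to 7.44 and 2.95 CPM and Sox1 from 13.7 and 10.5 to 3.99 and 3.14 CPM. Of 84 genes of neurons and synapses 27 rose and 23 fell (32.1% and 27.4%), close to the 30.8% and 27.9% over all tested genes. Tubb3 dropped from 194 and 189 to 52.2 and 64 CPM and Stmn2 from 210.2 and 223 to 75.3 and 57.1 CPM, while Syt1, a synaptic vesicle protein gene, rose from 0.616 and 0.873 to 2.3 and 3.58 CPM. Ion channel genes of excitable cells rose in 18 of 40 cases and fell in 4. Kcna1 went from 0.547 and 0.437 to 4.94 and 4.96 CPM.

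Muscle genes rose in 11 of 28 cases and fell in 5. The fast troponin genes Tnni2 and Tnnt3 rose from under 1 CPM, Tnnt3 to 6.29 and 12.6 CPM, while titin (Ttn) fell from 195 and 139.9 to 26.9 and 41.6 CPM. The master regulator gene Myod1 had at most 3 counts in each DMSO library and 0.338 and 0.879 CPM in TSA and was below the test's filter. Blood and endothelial genes gave 8 higher and 7 lower of 21. Pecam1, which stem cells also express, fell from 72.1 and 112 to 29.8 and 35 CPM, and Ptprc (CD45) rose from 2 and 1 counts in DMSO to 3.72 and 4.46 CPM. Of 39 listed Hox genes 15 passed the filter on low counts, and 5 of these rose.

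Mesenchymal genes rose from low levels. Of 34 fibroblast and mesenchymal markers 26 rose and 2 fell, with a median of 1.51, or 1.34 with Twist2, at 0 counts in DMSO, set to a floor of 3 counts per library. Collagen genes were among them, Col1a1 at 0.684 and 0.655 CPM in DMSO and 4.53 and 9.73 CPM in TSA and Col1a2 at 1.09 and 1.6 against 8.39 and 14.4 CPM. Lum, which encodes the matrix proteoglycan lumican, rose from 0 and 1 counts in DMSO to 4.74 and 5.65 CPM. Fibronectin (Fn1) fell from 317 and 402 to 164 and 194 CPM. The second TSA library was above the first at both collagen genes. Across 10 fibroblast-defining genes the sum was 11.4 and 11.1 CPM in DMSO and 36.9 and 54.9 CPM in TSA, with 8 of 10 higher in both TSA libraries than in both DMSO libraries, Dcn at 0 in TSA and Prrx1 at 0.271 and 0 CPM there. The part of other cells in these values was not tested.

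Epithelial genes rose more often than they fell, 23 against 4 of 43. Krt18, a keratin of simple epithelia, went from 28.4 and 38.9 to 56.3 and 94 CPM. Krt5, a keratin of stratified epithelia, rose by a ratio of 39.7 (exact 95% counting interval 15.2 to 147), while Krt17 fell from 54.5 and 73.4 to 6.16 and 6.34 CPM. For the cytoskeleton 17 of 45 rose and 4 fell. Gelsolin (Gsn), an actin-severing protein gene long known to respond to TSA, went from 9.92 and 14.2 to 56.2 and 69.8 CPM. Beta-actin (Actb) overlapped between groups at 2043 and 1846 against 2159 and 1864 CPM.

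Interferon-stimulated genes did not rise as a block. Of 34 tested 11 rose and 12 fell. Usp18 had no count in DMSO and 1.69 and 2.89 CPM in TSA, and Irf7 was at 0.411 and 0.291 against 1.29 and 2.01 CPM. Ifit1 fell from 2.05 and 2.11 to 0.338 and 0.44 CPM, and Tgtp1, one of a pair of near-identical copies, fell from 3.35 and 3.71 CPM to 1 and 0 counts. Antigen presentation genes rose in 9 of 17 cases and fell in 4. The peptide transporter gene Tap1 was at 16.2 and 14 CPM in DMSO and 30.2 and 28 CPM in TSA. Nlrc5, the activator of class I genes, rose from 1.64 and 1.53 to 5.75 and 5.59 CPM, and Erap1, a trimming peptidase gene, fell from 25.9 and 23.7 to 4.74 and 7.16 CPM. Class I heavy chain genes such as H2-K1 are similar copies, so their single counts are uncertain.

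More cell cycle genes fell than rose, while in the mixed list of CDK inhibitors and p53 targets more rose than fell. Of 43 cyclin and mitosis genes 26 fell and 4 rose, with a median of -0.34. Scaled by library totals, 19 fell and 8 rose. Ccnd1, the cyclin of G1 entry, was at 215 and 163 CPM in DMSO and 47.8 and 27.3 CPM in TSA, and Mybl2, a driver of mitotic genes, at 243 and 284 against 84.2 and 88.7 CPM. Ccne1 rose from 292 and 250.5 to 420.0 and 458 CPM. For DNA replication 31 of 48 fell and 2 rose, with Mcm2, part of the replicative helicase, at 523 and 531 CPM in DMSO and 261 and 248 CPM in TSA. With library totals as the scaling 26 replication genes fell and 6 rose.

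Among CDK inhibitors and p53 targets 15 of 31 rose and 5 fell. Cdkn1a, the p21 gene and a classic responder to deacetylase inhibitors, was at 21.4 and 25 CPM in DMSO and 49.3 and 46.2 CPM in TSA, and Cdkn2a at 12.5 and 12 against 25.4 and 24.1 CPM. Mdm2, a target and inhibitor of p53, rose from 153 and 154 to 256 and 309 CPM. Cdkn1b (p27) went against the list and fell from 57.9 and 53 to 18.9 and 14.1 CPM. In the apoptosis list the pro-death BH3 genes Pmaip1 and Bcl2l11 rose and another, Hrk, fell, Pmaip1 (Noxa) from 21.3 and 20.3 to 129 and 111 CPM and Bcl2l11 (Bim) from 36.9 and 34.4 to 133 and 132 CPM. Over the apoptosis list 10 of 29 rose and 9 fell, and the survival gene Bcl2l1 was not called (96.3 and 81.8 CPM in DMSO, 73.5 and 58.7 in TSA).

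Replication-dependent histones, made in S phase, fell in 41 of 54 cases and rose in none, with a median of -0.61. Hist1h1d, a linker histone gene, was at 747 and 700.5 CPM in DMSO and 338 and 286 CPM in TSA, and Hist2h2ac at 105 and 92.1 against 53.4 and 48.4 CPM. Scaled by library totals, 37 fell and 1 rose. Of linker and replacement histones 6 of 15 rose and 7 fell, with a median of -0.12. The linker histone H1f0, which accumulates in cells that stop dividing, rose from 63.4 and 90.2 to 172 and 161 CPM, and H1fx from 5.41 and 10.2 to 20.2 and 26.9 CPM. The replacement histone gene H3f3b rose from 610.3 and 608 to 1225 and 1292 CPM and H3f3a fell from 74.7 and 67.6 to 42.9 and 35.2 CPM, although both encode the same H3.3 protein. The histone variant genes H2afz and H2afy2 fell, by log2 fold changes of -0.61 and -1.55.

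Many promoters of the replication-dependent histones hold the sequence of the TATA box, counted here at any position. TATAAA, on either strand, stood in 28 of 48 histone promoters (58.3%) and in 7.68% of the 11940 promoters matched to tested genes, over 250 bases before to 50 after the start. Over the 250 bases before the start alone these shares were 47.9% and 6.92%. The 250 bases before the start of Hist1h1d (chr13:23554782-23555031, plus strand) and Hist2h2ac (chr3:96220881-96221130, minus strand) follow from RefSeq on GRCm38.p6. Capitals mark TATAAA and TTTATA, its form on the other strand.
Hist1h1d: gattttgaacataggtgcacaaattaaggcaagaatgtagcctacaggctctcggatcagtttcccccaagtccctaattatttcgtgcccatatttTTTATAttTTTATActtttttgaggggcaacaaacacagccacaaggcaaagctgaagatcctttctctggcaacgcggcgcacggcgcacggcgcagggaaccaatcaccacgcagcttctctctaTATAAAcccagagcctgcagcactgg
Hist2h2ac: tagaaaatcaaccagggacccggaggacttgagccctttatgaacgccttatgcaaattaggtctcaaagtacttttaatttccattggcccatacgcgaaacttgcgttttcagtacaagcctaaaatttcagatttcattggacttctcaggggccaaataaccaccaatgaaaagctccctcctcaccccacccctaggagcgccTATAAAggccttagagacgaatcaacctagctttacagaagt
These matches describe the sequence and say nothing of the factor bound there.

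**Figure D5:**
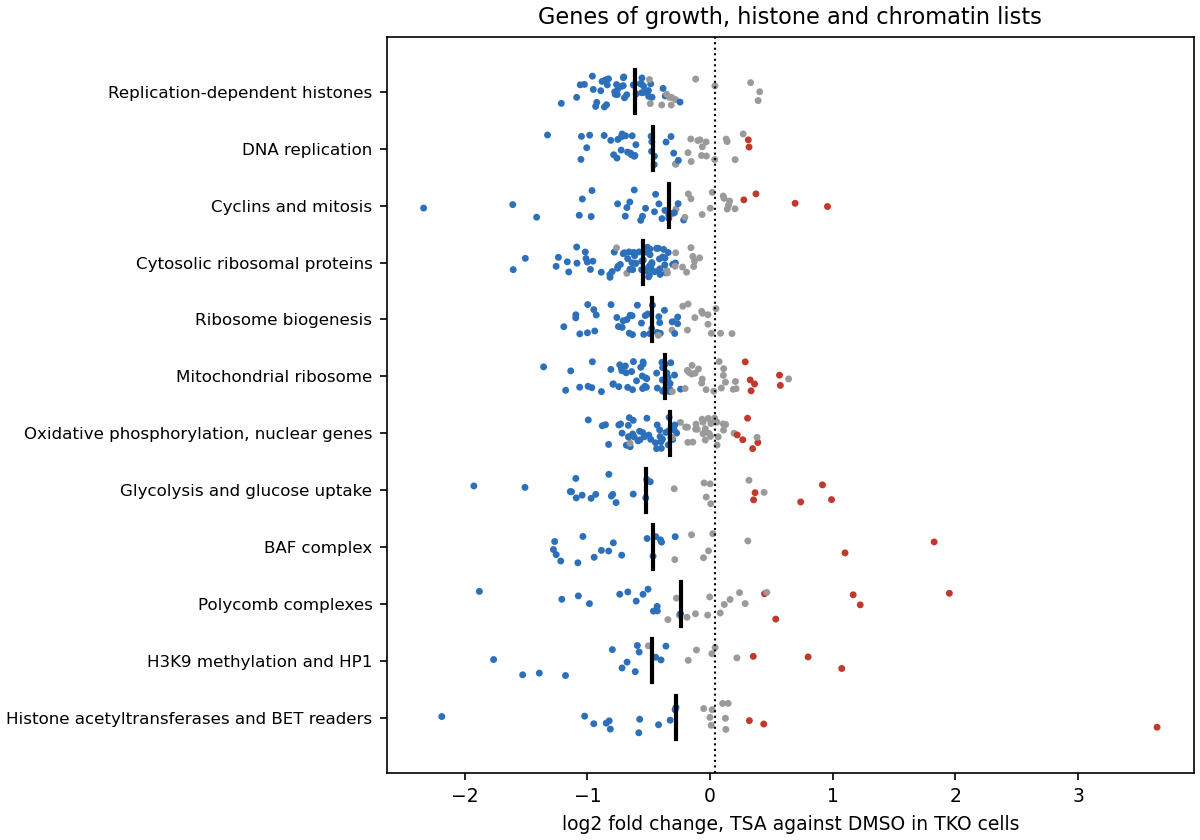
Log2 fold change of TSA against DMSO for each tested gene of 12 lists of growth, histone and chromatin genes; points are genes, coloured red where they rose, blue where they fell and grey where not called, black bars are list medians and the dotted line is the median of all tested genes, 0.04. Ribosomal protein and replication-dependent histone genes lie below zero almost throughout.

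Of the enzymes that TSA inhibits, Hdac1 (11.1 and 13 CPM in DMSO, 14.8 and 14.6 in TSA), Hdac2 (226 and 215, 193 and 183) and Hdac3 (103 and 104, 109.9 and 99.4) were not called. Other deacetylase genes were called, among them Hdac7 and Hdac11, which rose but lost the call under 1 or more alternatives. Of 30 deacetylases and subunits of their complexes 8 rose and 13 fell, among them the corepressor genes Ncor1 (381 and 372 CPM in DMSO, 193 and 169 in TSA) and Rcor2. The share of this list that fell, 43.3%, is close to the 43.5% of the highest level bin. On the side of acetyltransferases and bromodomain readers 12 of 23 fell and 3 rose. Kat2b (PCAF) dropped from 138 and 137 to 33.3 and 27.1 CPM and Crebbp (CBP) from 77.8 and 78.4 to 37 and 39.9 CPM, while Hat1, which acetylates new histone H4, rose from 474 and 468 to 659.9 and 616 CPM.

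Remodelling and silencing complexes differed in how often their genes fell. BAF complex genes fell in 17 of 25 cases and rose in 2, Arid1a from 158 and 158 to 86.8 and 84.6 CPM and Smarcb1 from 113 and 105 to 49.5 and 41.1 CPM. Polycomb genes fell in 13 of 31 and rose in 5, with Phc1 at 380.2 and 394 against 126 and 84 CPM and Phc2 at 22.8 and 21.5 against 73.4 and 97.6 CPM, opposite directions for related subunits. The Polycomb shares, 41.9% lower and 16.1% higher, lie close to the 43.5% and 18.0% of the highest level bin. With library totals as the scaling 10 Polycomb genes fell and 9 rose. Of 22 genes of H3K9 methylation and HP1 13 fell and 3 rose. Cbx5, which encodes HP1 alpha, went from 1026 and 848 to 305 and 247 CPM, and the H3K9 demethylase gene Kdm3a from 379 and 379.6 to 130.1 and 133 CPM.

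Of the 3 genes of enzymes that oxidise methylated cytosine, Tet1 and Tet2 fell and Tet3 was not called (log2 fold change -0.04). Tet1 was at 991 and 886 CPM in DMSO and 169 and 108 CPM in TSA (log2 fold change -2.76 ± 0.22 SE, edgeR adjusted p 1.36e-05), and Tet2 at 294 and 338 against 74.4 and 64.6 CPM. Over the DNA methylation machinery 4 of 15 rose and 4 fell. Those that rose include Dnmt3a and Dnmt3b, which are deleted in TKO cells and keep only the remaining reads described above. The Dnmt3a call was lost under 1 or more alternatives. Dnmt3l, the catalytically inactive cofactor that the TKO retains, rose from 747 and 671 to 1292 and 1012 CPM. Of the studied transcription factors Gabpa fell from 304 and 300.4 to 216 and 189 CPM. Max, Nrf1, Sp1 and Yy1 were not called, with log2 fold changes of 0.17, -0.08, -0.2 and -0.07. Among their relatives Mycn, a Myc family partner of Max, was at 343 and 298 CPM in DMSO and 171 and 113 CPM in TSA.

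Protein synthesis genes fell modestly and widely. None of 77 cytosolic ribosomal protein genes rose and 63 fell, with a median log2 fold change of -0.54, and scaled by library totals 49 fell and none rose. Rps3 was at 1634 and 1618 CPM in DMSO and 1305 and 1216 CPM in TSA, and Rpl3 at 92.2 and 74.9 against 42 and 41.6 CPM. Ribosomal protein genes have many processed copies in the genome, so their single counts are uncertain. For ribosome biogenesis 36 of 51 fell, with nucleolin (Ncl) at 984 and 844 against 517 and 431 CPM. Mitochondrial ribosomal protein genes fell in 49 of 76 cases and rose in 6, and nuclear genes of oxidative phosphorylation in 41 and 5 of 74. Medians were -0.37 and -0.33. Scaled by library totals, 33 mitochondrial ribosomal protein genes fell and 10 rose, and 27 oxidative phosphorylation genes fell and 7 rose.

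Motifs of the studied factors were more frequent in some lists of promoters and less frequent in others. CCGGAAG, the Gabpa motif, on either strand stood in 23 of 67 mitochondrial ribosomal protein promoters (34.3%) and in 16.8% of all matched promoters. ATGGCGG, the Yy1 motif, stood in 19.4% of them against 7.56% of all, and in 1.49% of them against 3.43% of all when the 50 bases after the start were left out, so the order of list and background turned. CACGTG, the E-box read by Max, stood in 7.46% of them against 10.1% of all. In germline promoters GCATGCGC, the Nrf1 motif, stood in 8 of 38 (21.1% against 5.18%) and the E-box in 13 (34.2% against 10.1%). GGGCGG, the GC box read by Sp1, stood in 49.3% of mitochondrial ribosomal protein and 50% of germline promoters, below the 63.5% of all. Shares are descriptions of sequence, and promoters with a motif were not compared with those without. Apart from the shorter window given for Yy1, the shares of these factors' motifs cover 250 bases before to 50 after the start.

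Glycolysis genes fell in 17 of 29 cases and rose in 5. Ldha, which makes lactate, was at 798 and 859.8 CPM in DMSO and 408 and 350.3 CPM in TSA, and the pyruvate kinase gene Pkm at 1992 and 2079 against 1228 and 1167 CPM. In the sterol list 12 of 32 fell and 7 rose. Among amino acid transporters Slc7a3 dropped from 248 and 234 to 35.7 and 28 CPM. The metallothionein genes Mt1 and Mt2, whose products bind zinc and copper, rose, Mt1 from 49.7 and 60.3 to 250.3 and 297 CPM and Mt2 from 83.3 and 109.7 to 322 and 352 CPM. The heat shock genes Hspa1a and Hspa1b, near-identical copies, rose by log2 fold changes of 3.8 and 2.48, while Hspa5, the marker of endoplasmic reticulum stress, was not called. Lysosome genes were mixed, with 13 of 45 higher and 16 lower.

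Few genes passed the test of a different TSA response in TKO and wild type cells. The interaction of treatment and genotype was called for 214 genes (1.35% of those tested), 137 with a higher and 77 with a lower TSA effect in TKO. The count moved with single libraries. It was 15 without TKO DMSO replicate 2, 56 without TKO DMSO replicate 1 and 44 without TKO TSA replicate 2. Among wild type libraries it was 44 and 109 without TSA replicate 1 or 2, and 95 and 427 without DMSO replicate 1 or 2. The two-cell-like list had a median of 4.6 in TKO and 3.39 in wild type, the pluripotency list -1.11 and -1.01, and the mesenchymal list 1.51 and 0.42. These medians compare fold changes and not levels. No two-cell-like gene and 1 pluripotency gene, Prdm14, passed the interaction test, against 5 of 34 mesenchymal genes. Emp1 had a log2 fold change of -4.28 in TKO and -0.3 in wild type (interaction -3.97 ± 0.25 SE, edgeR adjusted p 2.29e-05). Trh fell in both, by log2 fold changes of -5.78 and -3.07, and the difference passed the test (edgeR adjusted p 0.00601) but not without wild type DMSO replicate 1 (0.0563 in the same test). Eomes had 2.28 in TKO and -0.5 in wild type (interaction edgeR adjusted p 0.00368), and Bcl2l11 1.9 and 0.77 (edgeR adjusted p 0.00453, and 0.0565 without TKO DMSO replicate 2). The Prdm14 call was lost without any 1 of 6 of the 8 libraries, both TKO DMSO libraries, TKO TSA replicate 2, wild type DMSO replicate 1 and both wild type TSA libraries, with edgeR adjusted p-values up to 0.187. The interaction calls of Emp1 and Eomes held without each library in turn.

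The replicate libraries were not alike, in TSA or in DMSO. Between the second and the first TSA library the median log2 difference, on CPM plus 1, was 0.42 for two-cell-like genes, 0.38 for retinoic acid genes and -0.14 for pluripotency genes, against 0.01 over all tested genes. Between the second and the first DMSO library it was 0.13, 0.03 and 0.19 for these lists, against 0.01 over all tested genes. Measured within each replicate number, the two-cell-like median was 2.82 and 3.54, and the pluripotency median -1.0 and -1.5. The gap between the pluripotency medians thus includes a difference between the controls. Both medians kept their sign in either TSA library. Without the second TSA library 7095 genes were called, and without the first DMSO library 7152.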

How the data were processed

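RNA-seq of ribosomal RNA-depleted total RNA was analysed for 4 TKO libraries, with 4 wild type libraries in the same fit (8 in all). The authors deposited read counts per gene, which per the submitters' processing notes name TopHat2 2.0.13, featureCounts 1.4.5-p1, edgeR 3.22.3 and the mm10 build. The strand setting of the counting is not given in the sources used here, so genes that overlap others are uncertain. Libraries held 13280631 to 15542527 counts, and every gene row was kept in the library totals.

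The test was that of edgeR 4.0.16 under R 4.3.3 (filterByExpr, TMM scaling, quasi-likelihood fit of 4 group means with 4 residual degrees of freedom, robust), tested on simulated data first. P-values were Benjamini-Hochberg adjusted over 15822 genes. Libraries of a group varied by a common coefficient of 10.3%. An exact permutation test of 2 against 2 libraries cannot go below 0.333. CPM values use TMM-scaled library totals. For genes with 3 counts or fewer in each library of a group, ratios are of counts summed over a group and scaled by effective library size, with exact Clopper-Pearson intervals. Gene groups are described by counts and medians, with no set test. The members and lists were chosen with earlier results of these data known.

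Named genes are the 12 strongest called genes in each direction with a mean of at least 5 CPM, the 6 strongest with at least 100 CPM, the key genes of each list and its 2 strongest called genes in each direction. All but the key genes had to show no overlap between TSA and DMSO libraries. The strongest of all genes also needed at most 10% of exon bases shared with another gene and a symbol that is not a clone or model name. The strongest of a list needed a mean of at least 1 CPM. Aldh1a2, Inhbb, Mycn, Smad1, Smad5, Tbx3, Tdgf1, Tdh, Tet3, Tfap2c and Twist2 were named outside that rule after their values were seen. Some genes under the rule are not reported here. Alternatives were other scalings, DESeq2 1.42.0, other filters, a replicate block and leaving out each library. RefSeq promoters were matched by symbol within 1000 bases of the table's gene start. This reached 11940 tested genes (75.5%), and only lists with at least 80% matched are given. The share over all matched promoters, printed beside each list, itself falls short of that mark. The ChIP-seq and ATAC-seq samples (118) were not analysed here.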

Additional observations from a re-analysis of the deposited data

Results flagged for a closer look

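For 18 of the genes named above the TSA effect in TKO cells differed from that in wild type cells by the interaction test (edgeR, adjusted p below 0.05), and each value here is the TKO log2 fold change minus the wild type one. TKO cells showed the larger decrease for Emp1 (-3.97), Trh (-2.71), Notch4 (-1.97), Krt17 (-1.59), Prdm14 (-1.47), Enox1 (-1.32) and Jam2 (-0.97). The larger increase in TKO cells was found for Col1a1 (3.05), Plat (1.72), Fgfr2 (1.22), Pmaip1 (1.19), Nrarp (1.19) and Bcl2l11 (1.12). Mean Col1a1 was at 0.67 CPM in DMSO and 7.13 CPM in TSA in TKO cells, against 12.4 and 15.9 CPM in wild type. With TSA it thus stayed lower in TKO cells than in wild type cells in DMSO. Eomes (2.79), Sox3 (2.7) and Dnmt3b (1.33) had opposite signs in the genotypes, positive in TKO and negative in wild type. Zic2 fell less in TKO than in wild type (1.53), and Bmp4 had log2 fold changes of -0.03 in TKO and 1.05 in wild type (difference -1.08).

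The calls of Emp1, Eomes and Dnmt3b held without each of the 8 libraries in turn. The Nrarp call was lost whichever library was left out, with edgeR adjusted p-values from 0.051 to 0.161, and the remaining 14 lost their call without 1 or more libraries. Dnmt3b is one of the genes deleted in TKO cells, and the gene table does not resolve which part of the gene its remaining reads cover.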

How the results depend on the processing

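Of 330 called genes under the naming rule or named above, 283 kept direction and call under all 17 alternatives fitted per gene and none reversed, while 47 lost the call under 1 or more. These include B2m, Cdh1, Dazl, Dlk1, Furin, Map2, Socs3, Stra8 and Tfcp2l1, whose values are left out of the text above for that reason, and Sox2. The counts of genes called, higher, lower and at least 2-fold different stayed within 1.5 times under every alternative except a direct edgeR test against a 2-fold change, which called 2127 genes. The total of genes called ranged from 7095 to 9697 without 1 library, higher from 3769 to 5147, lower from 3284 to 4619, at least 2-fold different from 3403 to 4186, and the interaction from 15 to 427. DESeq2 called 387 interaction genes and no filter 350. Scaling by library totals raised the share of higher calls from 52.5% to 64.4%, and 15 of 51 list medians changed sign under 1 or more alternatives. A lone library left in a group was assumed to vary like the other groups. The promoter comparison by call direction could not be run because too few genes were matched.

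A fit blocked on the replicate number gave 10055 called genes (5255 higher, 4800 lower, 4190 at least 2-fold different), and 696 for the interaction. The labels do not say that a number marks a shared culture day, and each group has 2 libraries. Deviations of same-numbered libraries correlated across genes at 0.0485 to 0.389 over the pairs of groups and 0.233 for the TKO pair, all positive. Whether a number marks a shared batch was not tested, and the main fit did not pair the libraries.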
